A study of Mus musculus with 16 samples.

Results

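The piRNA pathway genes described here are 10 protein-coding genes, Piwil2, Gtsf1, Mov10l1, Ddx4, Tdrd9, Asz1, Tdrkh, Tdrd1, Fkbp6 and Mael, chosen by name. They were followed in 16 libraries of bulk RNA from the mouse embryonic stem cell line ES-E14TG2a (E14), which derives from the inner cell mass of a blastocyst. Of 35975 genes with summed counts, 18489 passed the filter on low counts, and all 10, called members below, were among them. The libraries came from 2 genotypes, written TKO and WT, each at day 0, 2, 4 and 7, with 2 libraries per group. The labels do not spell out TKO, which was read as cells without the DNA methyltransferases encoded by Dnmt1, Dnmt3a and Dnmt3b. Nor do they say how many clones were used. At day 0 the cells of both genotypes had been kept on fibronectin in serum-free medium with LIF, a Gsk3 inhibitor, a MEK inhibitor and vitamin C. From then on both received Fgf2, Activin A and 1% Knock-out serum, which moves cultures toward epiblast-like cells (EpiLC), and both were split once more at day 4. The labels call the libraries of a group biological replicates without naming separate cultures, so p-values measure the spread between these libraries, which may be technical.

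PIWI-interacting RNAs (piRNAs) are short RNAs of the germ line that guide PIWI proteins, a branch of the Argonaute family, to transposon transcripts. They are cut from long precursors in germ granules and on the outer membrane of mitochondria by a chain of helicases, Tudor-domain scaffolds, nucleases and chaperones. In mice most of these genes are active in germ cells, and the CpG-rich promoters of many of them are known to be methylated and silent in somatic cells.

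In these cells the 10 genes were all detected at day 0 in both genotypes and then parted. At day 7 both TKO libraries held more transcript than both WT libraries for each of the 10 genes, as they did for 39.5% of all genes tested. On that day edgeR called 9 of the 10 higher, where 23.4% of all genes tested were called higher. For 9 of the 10 the highest value in any WT library of day 7 was 1.33 CPM (counts scaled by library size), that of Piwil2. The share of all genes at or below that level was not counted. Among these 9 genes Tdrd1 was low in TKO too, with 1.41 and 1.32 CPM, and the tenth gene, Tdrkh, was at 41.3 CPM or more in both genotypes. Day 2 looked different: 4 genes were called lower in TKO, where 5.52% of all genes were, and 1, Asz1, was called higher, where 7.91% were.

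The promoters are shown so that the members may be compared at the sequence level, although their levels did not all move together. RefSeq (assembly GRCm38.p6) gave the stretch of 250 bases before the transcription start for 9 of the 10 genes. Those of 5 genes whose RefSeq and GENCODE starts lie within 4 bases of each other follow, 5′ to 3′ on the gene's strand, from chr6:18109062-18109311 (minus strand) for Asz1, chr1:166238745-166238994 (minus) for Mael, chr19:56825959-56826208 (plus) for Tdrd1, chr12:111971309-111971558 (plus) for Tdrd9 and chr5:135350045-135350294 (minus) for Fkbp6. Capitals mark CACGTG, the palindromic core of the E-box, a site bound by dimers of the Max protein.
Asz1: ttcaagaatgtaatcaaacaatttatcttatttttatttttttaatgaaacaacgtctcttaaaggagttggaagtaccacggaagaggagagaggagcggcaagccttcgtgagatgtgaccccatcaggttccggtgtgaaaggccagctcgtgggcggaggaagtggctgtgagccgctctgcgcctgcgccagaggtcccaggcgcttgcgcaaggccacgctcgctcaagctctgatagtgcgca
Mael: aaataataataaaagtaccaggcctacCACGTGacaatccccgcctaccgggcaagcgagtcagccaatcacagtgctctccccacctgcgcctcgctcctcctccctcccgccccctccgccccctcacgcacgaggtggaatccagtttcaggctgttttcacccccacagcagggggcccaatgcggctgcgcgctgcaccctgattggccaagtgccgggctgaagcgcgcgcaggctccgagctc
Tdrd1: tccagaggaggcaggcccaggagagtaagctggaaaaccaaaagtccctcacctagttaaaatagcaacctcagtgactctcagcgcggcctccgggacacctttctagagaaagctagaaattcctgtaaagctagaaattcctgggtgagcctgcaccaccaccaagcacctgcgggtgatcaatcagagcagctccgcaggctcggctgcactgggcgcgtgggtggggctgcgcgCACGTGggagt
Tdrd9: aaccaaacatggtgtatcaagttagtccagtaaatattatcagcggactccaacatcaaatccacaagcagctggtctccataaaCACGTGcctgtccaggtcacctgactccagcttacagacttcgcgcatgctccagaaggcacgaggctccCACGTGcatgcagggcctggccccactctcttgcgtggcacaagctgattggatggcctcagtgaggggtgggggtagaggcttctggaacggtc
Fkbp6: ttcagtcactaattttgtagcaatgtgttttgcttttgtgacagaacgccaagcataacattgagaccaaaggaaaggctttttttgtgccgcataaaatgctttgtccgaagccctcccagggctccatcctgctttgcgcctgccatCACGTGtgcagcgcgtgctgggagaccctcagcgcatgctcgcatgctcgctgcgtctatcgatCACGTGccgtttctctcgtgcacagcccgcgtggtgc
The motif CACGTG stood in 6 of the 9 promoters, once in Mael, Tdrd1, Ddx4 and Mov10l1 and at 2 places in Tdrd9 and Fkbp6, and in none of those of Asz1, Tdrkh and Gtsf1. Of all 32851 promoter windows of the same length 6.02% held it, and 0.429% held it at 2 or more places. Counted from the RefSeq start, with the last base before it at -1, the motif began at -11 in Tdrd1 and at -29 in Ddx4. It began at -37 and -101 in Fkbp6, at -95 and -165 in Tdrd9, at -223 in Mael and at -246 in Mov10l1. The RefSeq start of Ddx4 lies 165 bases inside Ddx4-202, the transcript with 99.1% of the gene's estimated counts. The motif of Ddx4 thus lies within the span of that transcript and not before its start. Searched on both strands, GCGGGA, the core of many E2F sites, stood in 2 of the 9, Mael and Ddx4, against 16.9% of all windows. Max and E2f6 belong to a Polycomb complex known to hold germ line genes silent in mouse embryonic stem cells. All 9 windows held more CpG dinucleotides than the median window, 7 to 31 of them, with a median of 17, against a median of 6 over all windows. CACGTG contains a CpG itself, and of the 13705 windows within the members' range of CpG number 9.01% held CACGTG and 30.5% held GCGGGA. These matches describe letters in a window and show neither binding nor methylation, which were not measured here.

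**Figure D1:**
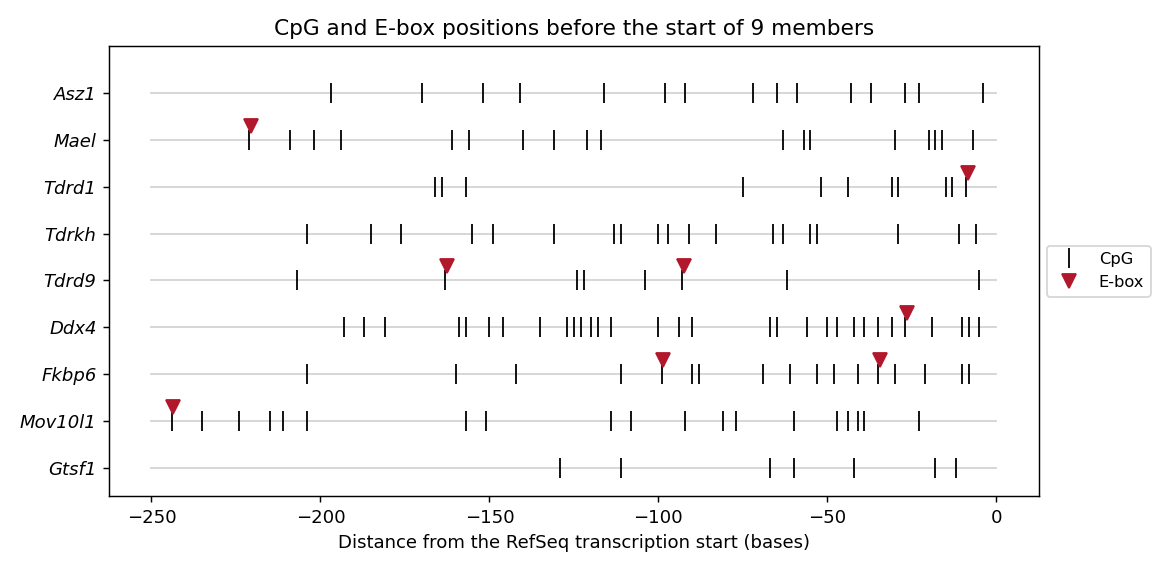
Positions of CpG dinucleotides (black ticks) and of CACGTG (E-box, red triangles) in the 250 bases before the RefSeq transcription start of 9 members; the horizontal axis is the distance from the start in bases. The E-boxes of Tdrd1, Ddx4 and Fkbp6, and the nearer E-box of Tdrd9, begin at -101 or closer to the start. The RefSeq start of Ddx4 lies 165 bases inside its main transcript, Ddx4-202. Gtsf1 has the fewest CpG dinucleotides, 7.

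Total estimated counts were 33168178 to 47064338 per TKO library and 39799498 to 58197630 per WT library. Dnmt1 was called lower in TKO on all 4 days (log2 fold changes from -3.18 to -3.04), and Dnmt3a and Dnmt3b on 3 of 4 days each, all but day 4 for Dnmt3a and all but day 0 for Dnmt3b. At day 4 Dnmt3a had 187 and 33.9 CPM in TKO replicates 1 and 2 and 297 and 380 CPM in WT, so TKO replicate 1 stood apart from its partner. With all libraries the log2 fold change of Dnmt3a at day 4 was -1.61 (edgeR adjusted p = 0.0553). It was -3.33 without TKO replicate 1 and -0.86 without TKO replicate 2, and Dnmt3a was called lower in both fits. The members Tdrkh and Ddx4 lost their day 4 calls between genotypes without TKO replicate 1, and also without WT replicate 1. The pluripotency genes Pou5f1, Sox2 and Nanog were at 1 CPM or more in every group, with a summed level of 826 to 1880 CPM in TKO libraries and 1030 to 2090 CPM in WT libraries. In bulk RNA, fewer cells that express a gene and less RNA per cell cannot be told apart. Levels below are CPM per library, scaled by effective library size, and each fold change is TKO over WT on the log2 scale with its standard error. Adjusted p-values come from edgeR's quasi-likelihood test with Benjamini-Hochberg adjustment over all 18489 genes, and a gene was called at an adjusted p under 0.05. Positions of genes are those of GENCODE vM21 on GRCm38.

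Piwil2 (chromosome 14, 70372477 to 70429383, minus strand) encodes MILI, the PIWI protein that binds piRNAs in fetal and postnatal male germ cells of mice. TKO libraries held 5.21 and 5.40 CPM at day 0, 25.6 and 25.5 at day 2, 27.5 and 22.6 at day 4 and 16.2 and 17.5 at day 7. WT libraries held 9.06 and 8.39 CPM at day 0, 22.6 and 19.2 at day 2, 3.53 and 5.39 at day 4 and 1.33 and 0.989 at day 7. The genotypes thus did not overlap on any day: TKO was lower at day 0 and higher from day 2 on. The fold change was -0.72 ± 0.18 at day 0 (edgeR adjusted p = 0.0205), 0.29 ± 0.16 at day 2 (0.264, not called), 2.49 ± 0.18 at day 4 (6.14e-07) and 3.86 ± 0.21 at day 7 (1.31e-08). Leaving out TKO replicate 1 (-0.68, 0.145), TKO replicate 2 (-0.73, 0.121) or WT replicate 1 (-0.66, 0.0755) removed the call of day 0, as did an offset for effective length (-0.49, 0.156) and a fit with only the day 0 libraries (-0.69, 0.0622).

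Gtsf1 (chromosome 15, 103402405 to 103430470, minus strand) encodes a small zinc-finger protein that binds PIWI proteins and is needed for their cutting of target RNA in mouse testis. TKO libraries held 4.84 and 4.21 CPM at day 0, 7.02 and 6.73 at day 2, 4.08 and 5.06 at day 4 and 7.91 and 8.54 at day 7. In WT the values were 11.9 and 7.96 CPM at day 0, 3.88 and 5.89 at day 2, 0.121 and 0.167 at day 4 and 0 and 0.0723 at day 7. The level in TKO stayed within a narrow band while WT libraries were nearly empty from day 4 on. Gtsf1 was lower in TKO at day 0 (-1.13 ± 0.26, edgeR adjusted p = 0.0131) and higher at day 4 (4.98 ± 0.39, 1.19e-06), and at day 2 the fold change of 0.50 ± 0.26 was not called (0.22). Leaving out TKO replicate 1 (-1.22, 0.0782), TKO replicate 2 (-1.02, 0.131) or WT replicate 1 (-0.82, 0.0958) removed the call of day 0, as did a fit with only the day 0 libraries (-1.10, 0.0792). At day 7 the TKO libraries together held 585 counts and the WT libraries 3, a scaled ratio of 227 (95% exact interval 77.4 to 1110, counting error only).

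Mov10l1 (chromosome 15, 88982909 to 89055152, plus strand) encodes the helicase that binds piRNA precursors and feeds them to cleavage. TKO libraries held 8.60 and 7.62 CPM at day 0, 14.1 and 14.8 at day 2, 29.2 and 36.1 at day 4 and 47.3 and 45.1 at day 7. WT libraries held 9.14 and 9.97 CPM at day 0, 18.3 and 18 at day 2, 6.00 and 10.2 at day 4 and 0.0966 and 0.0965 at day 7. Mov10l1 went up at each later day in TKO, whereas WT peaked at day 2. TKO values lay below WT on days 0 and 2, without a call (-0.24 ± 0.19 and -0.33 ± 0.18, edgeR adjusted p = 0.464 and 0.249), though a fit with only the day 2 libraries called the difference of day 2 (-0.30, 0.0479). They lay above WT at day 4 (2.01 ± 0.18, 4.99e-06) and day 7 (8.86 ± 0.32, 3.42e-10), the latest with 4 counts in each WT library.

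Ddx4 (chromosome 13, 112598333 to 112652475, minus strand), the mouse homologue of vasa, is a DEAD-box helicase of germ granules and a classical germ cell marker. TKO libraries held 5.52 and 5.95 CPM at day 0, 13.3 and 12.8 at day 2, 43.4 and 32.8 at day 4 and 24.2 and 23.5 at day 7. WT libraries held 6.49 and 6.53 CPM at day 0, 28.5 and 28.1 at day 2, 20.1 and 30.8 at day 4 and 0.266 and 0.145 at day 7. TKO was the lower genotype on days 0 and 2 and the higher one on days 4 and 7, with no overlap on any day. The fold change was -0.18 ± 0.20 at day 0 (edgeR adjusted p = 0.597), -1.11 ± 0.18 at day 2 (0.00159), 0.58 ± 0.17 at day 4 (0.0202) and 6.84 ± 0.29 at day 7 (1.67e-09). Leaving out TKO replicate 1 (0.36, 0.193) or WT replicate 1 (0.30, 0.186) removed the day 4 call, as did a fit with only the day 4 libraries (0.59, 0.134).

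Tdrd9 (chromosome 12, 111971559 to 112068854, plus strand), a Tudor-domain helicase that works with the nuclear PIWI protein MIWI2 in fetal male germ cells of mice, had low levels throughout. TKO libraries held 0.512 and 0.750 CPM at day 0, 0.629 and 0.586 at day 2, 1.19 and 1.26 at day 4 and 2.82 and 2.73 at day 7. WT libraries held 1.27 and 1.13 CPM at day 0, 0.711 and 0.545 at day 2, 0.190 and 0.167 at day 4 and 0.0483 and 0.0241 at day 7. After day 2 the genotypes moved in opposite directions, and they overlapped at day 2, where the fold change was -0.06 ± 0.28 (edgeR adjusted p = 0.924). Tdrd9 was called lower in TKO at day 0 (-0.92 ± 0.27, 0.0428), a call lost without any 1 of the 4 day 0 libraries (-0.66 without TKO replicate 1 to -1.21 without TKO replicate 2), with DESeq2 (-0.91, 0.100) and without the low-count filter (-0.90, 0.134). At day 4 it was higher in TKO (2.75 ± 0.30, 2.32e-05, or 1.89 with an offset for effective length). Day 7 counts summed to 197 in TKO and 3 in WT, a scaled ratio of 76.6 (95% exact interval 25.8 to 375).

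Asz1 (chromosome 6, 18050964 to 18109061, minus strand) encodes a protein of the mitochondrial outer membrane that anchors the granules in which piRNAs are made, and its fold change at day 4 was the largest of the 10. TKO libraries held 2.87 and 2.66 CPM at day 0, 9.81 and 8.68 at day 2, 21.7 and 29.9 at day 4 and 49.6 and 50.8 at day 7. WT libraries held 2.78 and 3.19 CPM at day 0, 1.97 and 2.44 at day 2, 0.0862 and 0.0627 at day 4 and 0 at day 7 in both. The ranges overlapped at day 0 (-0.11 ± 0.19, edgeR adjusted p = 0.756), and TKO stood above WT on each later day. Asz1 was the one member called higher at day 2 (2.07 ± 0.17, 4.66e-05), and it was higher at day 4 (8.36 ± 0.27, 1.76e-09). At day 7 TKO libraries together held 3570 counts and WT libraries none, so that TKO was at least 1390-fold higher, taking 3 counts over both WT libraries as the limit that a count of 0 allows.

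Tdrkh (chromosome 3, 94413273 to 94434668, plus strand), a Tudor and KH domain protein of the same membrane that presents piRNA precursors for trimming of their 3′ ends, behaved unlike the others. TKO libraries held 1.22 and 1.36 CPM at day 0, 9.59 and 7.48 at day 2, 30.8 and 25.9 at day 4 and 55.9 and 55.9 at day 7. WT libraries held 2.11 and 1.71 CPM at day 0, 11.8 and 13.6 at day 2, 17.4 and 22.0 at day 4 and 45.9 and 41.3 at day 7. Both genotypes went up at each later day, and the gap between them was small, with TKO below WT on days 0 and 2 and above it on days 4 and 7. The fold change was -0.56 ± 0.23 at day 0 (edgeR adjusted p = 0.124), -0.57 ± 0.15 at day 2 (0.0239), 0.53 ± 0.14 at day 4 (0.0132) and 0.36 ± 0.14 at day 7 (0.0493). Leaving out any 1 of the 4 day 7 libraries (0.25 to 0.39) or adding an offset for effective length (0.06, 0.811) removed the call at day 7. That of day 4 was lost without TKO replicate 1 (0.39, 0.101), without WT replicate 1 (0.36, 0.122), with the length offset (0.28, 0.238) and with only the day 4 libraries (0.53, 0.0647), and that of day 2 without TKO replicate 2 (-0.41, 0.247) or WT replicate 2 (-0.46, 0.19).

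Tdrd1 (chromosome 19, 56826209 to 56870012, plus strand) encodes a protein with several Tudor domains that binds methylated arginines of PIWI proteins, and it was the one member called lower in TKO at day 4. TKO libraries held 0.370 and 0.144 CPM at day 0, 1.39 and 1.27 at day 2, 4.31 and 2.02 at day 4 and 1.41 and 1.32 at day 7. WT libraries held 0.324 and 0.352 CPM at day 0, 8.65 and 8.12 at day 2, 9.38 and 11.4 at day 4 and 0.941 and 0.940 at day 7. Both genotypes had their highest values at day 4, and TKO lay below WT on days 2 and 4, overlapped it at day 0 and lay above it at day 7. The fold change was -0.39 ± 0.52 at day 0 (edgeR adjusted p = 0.691), -2.66 ± 0.31 at day 2 (0.00025), -1.70 ± 0.28 at day 4 (0.000623) and 0.54 ± 0.35 at day 7 (0.233, not called). The TKO libraries of day 4 lay apart from each other, and the day 4 fold change was -2.36 without TKO replicate 1.

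Fkbp6 (chromosome 5, 135291704 to 135350044, minus strand) encodes a co-chaperone of Hsp90 that takes part in the loading of piRNAs in mouse testis, and per length it was the most abundant member at day 0. TKO libraries held 83.7 and 86.2 CPM at day 0, 23.5 and 23.4 at day 2, 16.3 and 19.0 at day 4 and 16.4 and 14.7 at day 7. WT libraries held 90.6 and 74.6 CPM at day 0, 18 and 22.4 at day 2, 1.52 and 1.59 at day 4 and 0.193 and 0.0965 at day 7. Fkbp6 was lower at day 2 than at day 0 in both genotypes, and at day 4 and day 7 TKO libraries held 14.7 CPM or more while WT libraries held 1.59 CPM or less. No difference between genotypes was called at day 0 (0.04 ± 0.12, edgeR adjusted p = 0.881) or day 2 (0.21 ± 0.13, 0.283), and TKO was higher at day 4 (3.51 ± 0.16, 1.68e-08) and day 7 (6.72 ± 0.24, 2.44e-10).

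Mael (chromosome 1, 166201201 to 166238747, minus strand) encodes Maelstrom, a germ granule protein needed for transposon silencing in mouse spermatocytes. TKO libraries held 0.285 and 0.404 CPM at day 0, 4.70 and 4.39 at day 2, 7.90 and 4.97 at day 4 and 2.01 and 1.87 at day 7. WT libraries held 1.03 and 0.678 CPM at day 0, 10.4 and 12.7 at day 2, 4.38 and 6.94 at day 4 and 0 and 0.0241 at day 7. TKO stayed under WT through day 2, the groups overlapped at day 4, and Mael was nearly absent from WT at day 7. It was lower in TKO at day 2 (-1.34 ± 0.27, edgeR adjusted p = 0.00625), a call lost without TKO replicate 2 (-1.30, 0.0787) or WT replicate 2 (-1.20, 0.0656). With edgeR neither day 0 (-1.30 ± 0.42, 0.062) nor day 4 (0.19 ± 0.26, 0.636) gave a call, but Mael was called lower in TKO at day 0 by DESeq2 (-1.29, 0.0294) and by edgeR without the low-count filter (-1.27, 0.0341). The day 4 value was -0.19 without TKO replicate 1. TKO libraries of day 7 together held 138 counts and WT libraries 1, a scaled ratio of 161 (95% exact interval 28.4 to 6400).

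**Figure D2:**
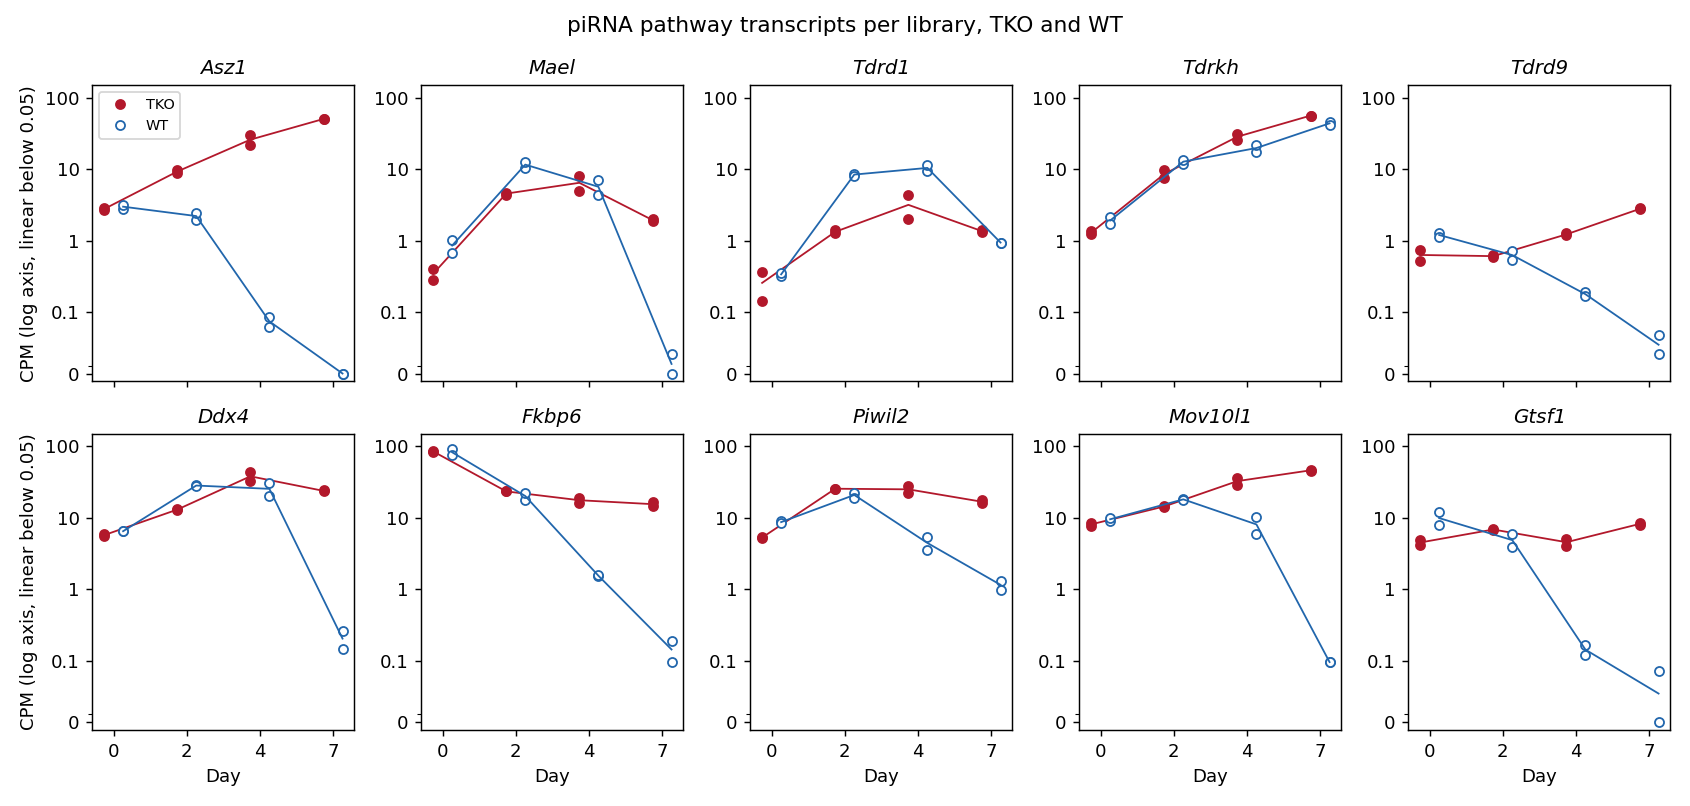
Level of each member in every library (points; TKO filled red on the left of each day, WT open blue on the right) with the group means joined by lines; the vertical axis is CPM, logarithmic above 0.05 and linear below it, and days 0, 2, 4 and 7 are evenly spaced. At day 7 both WT points of Asz1 are at 0 and both TKO points at 49.6 and 50.8 CPM, while Tdrkh is at 41.3 CPM or more in both genotypes.

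The counts of calls were read against those over all genes. At day 0 edgeR called 0 of the 10 members higher in TKO, where 4.52% of all genes tested were called higher, and 3 lower (Tdrd9, Piwil2 and Gtsf1), where 8.16% of all genes were. The median fold change of the members at day 0 was -0.48, against -0.03 over all genes tested. The 3 calls did not hold in every fit. All of them were lost without TKO replicate 1, without TKO replicate 2, without WT replicate 1, or with only the day 0 libraries. Without WT replicate 2 Piwil2 and Gtsf1 kept their calls, Tdrd9 lost its call (-0.98), and Mael was called lower (-1.55).

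At day 2 edgeR called 1 member higher in TKO, Asz1 (background 7.91%), and 4 lower, Tdrd1, Mael, Ddx4 and Tdrkh (background 5.52%), with a member median of -0.20 against -0.01 over all genes. Without TKO replicate 2 or without WT replicate 2 the number of members called was 3, since Mael and Tdrkh were lost. Day 4 had 8 members higher, all but Mael and Tdrd1 (background 17.8%), 1 lower, Tdrd1 (background 11.1%), and a median of 2.25 against 0.01. By day 7 there were 9 higher (background 23.4%) and 0 lower (background 21.1%), with a median of 6.78 against 0.00. The TKO range lay above the WT range for all 10, as it did for 39.5% of all genes. The day 4 calls of Ddx4 and Tdrkh were lost without TKO replicate 1 or WT replicate 1. That of Tdrkh at day 7 was lost whichever day 7 library was left out. Where 0 members were called in a direction, at day 0 and day 7 and in the interactions, 0 had an unadjusted p under 0.05 with edgeR in that direction and 0 were called by DESeq2.

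**Figure D3:**
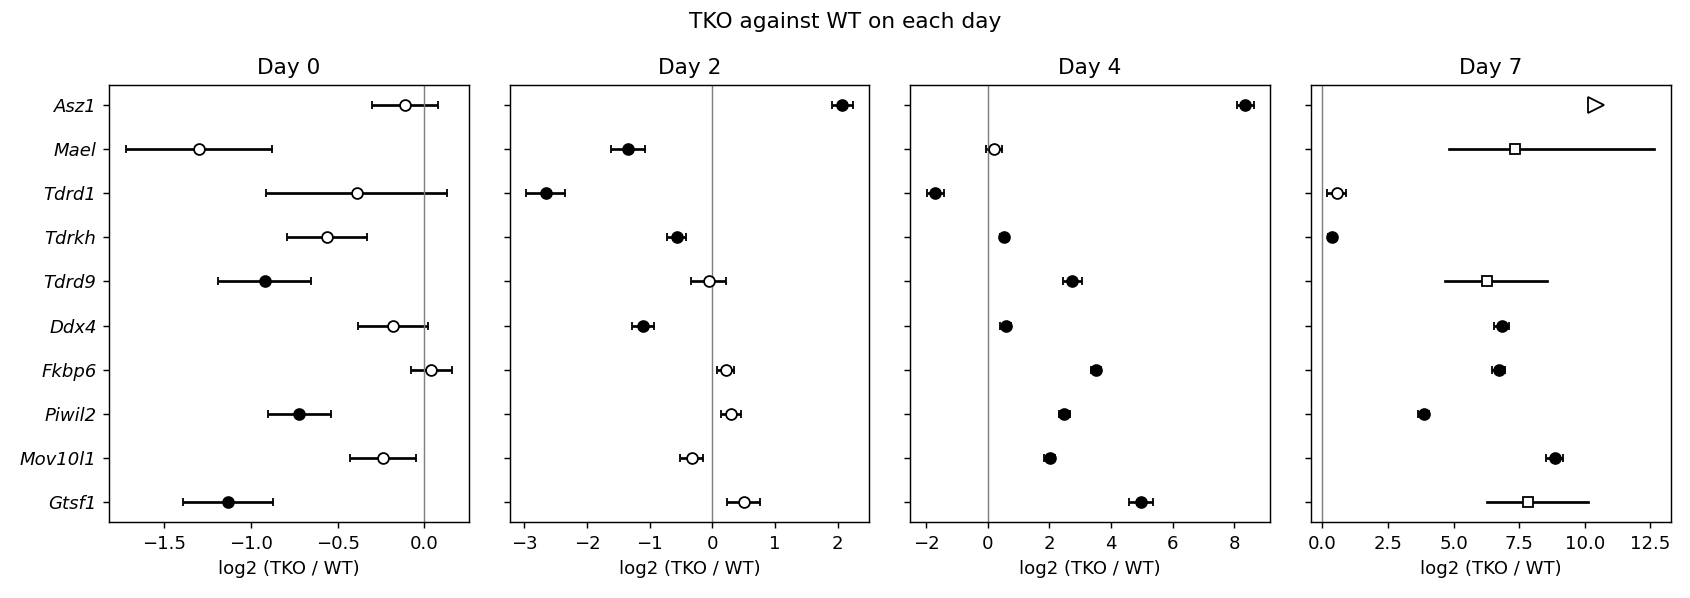
Log2 fold change of TKO over WT for each member on days 0, 2, 4 and 7 (circles, filled where called at an adjusted p under 0.05, bars 1 standard error; the horizontal scale differs between days). At day 7 squares are ratios of counts with a 95% exact interval, where WT held 1 to 3 counts, and the triangle of Asz1 is a lower bound; Tdrd1 is the one member left of 0 at day 4 among those called.

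Whether the difference between genotypes had changed since day 0 was tested as an interaction. At day 2 against day 0 it was called higher for 3 members, Asz1 (2.19 ± 0.25), Gtsf1 (1.63 ± 0.37) and Piwil2 (1.00 ± 0.24), where 5.76% of all genes were, and lower for 2, Tdrd1 (-2.27 ± 0.63) and Ddx4 (-0.93 ± 0.26), where 1.8% were. Leaving out any 1 of the 8 libraries left 1 to 3 of these 5 calls, 1 of them without TKO day 0 replicate 1 or without either TKO day 2 replicate, and without TKO day 0 replicate 1 the value of Tdrd1 was -1.44. The length offset ended the calls of Tdrd1 (-2.25), Ddx4 (-0.89) and Piwil2 (0.87). At day 4 the interaction was called higher for 7 members (background 11.6%) and lower for 0 (background 4.67%), and Mael (1.49 ± 0.5), Tdrd1 (-1.32 ± 0.61) and Ddx4 (0.77 ± 0.26) were not called by edgeR. DESeq2 called Mael (1.49, adjusted p = 0.04) and Ddx4 (0.76, 0.0468), edgeR without the low-count filter called Mael (1.46, 0.0316), and Tdrd1 was called lower without TKO day 4 replicate 1 (-1.99, 0.0138). At day 7 it was called higher for 9 (background 15.8%) and lower for 0 (background 11.3%), and for Tdrd1 (0.92 ± 0.63) it was not called. The calls of Tdrkh were lost without WT day 0 replicate 1 (0.93 at day 4, 0.76 at day 7), without TKO day 0 replicate 1 (0.99 at day 4, 0.79 at day 7) and with the offset for effective length (0.55 at day 4, 0.33 at day 7). Its day 7 call was also lost without TKO day 0 replicate 2 (0.94), TKO day 7 replicate 1 (0.86) or WT day 7 replicate 2 (0.80).

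Within each genotype each day was compared with the one before it, with log2 fold changes of the later over the earlier day. In TKO, day 2 against day 0 gave 7 members higher (background 31.5%) and 1 lower, Fkbp6 (background 25.5%), and in WT the same step gave 6 higher (background 32.9%) and 3 lower, Fkbp6, Tdrd9 and Gtsf1 (background 28.6%). Mael, Tdrkh, Tdrd1, Ddx4, Piwil2 and Mov10l1 rose in both. Mael showed the steepest rise of TKO at this step, 3.71 ± 0.37 on the log2 scale in TKO and 3.76 ± 0.32 in WT, and Tdrd1 that of WT, 2.35 ± 0.43 in TKO and 4.62 ± 0.37 in WT. At this step Tdrd9 and Gtsf1 were called in neither direction in TKO. In WT the call of Tdrd9 (-0.92 ± 0.27) was lost without day 0 replicate 1 (-0.84) or day 2 replicate 2 (-0.76), and that of Gtsf1 (-1.03 ± 0.26) without day 2 replicate 1 (-0.75). Asz1 was not called in WT at this step, but it was called lower with RLE size factors (-0.47, edgeR adjusted p = 0.0429), without the low-count filter (-0.49, 0.0302) and under a stricter one (-0.45, 0.0492).

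From day 2 to day 4 the genotypes went apart. In TKO 6 members were called higher at day 4 than at day 2 (background 24.5%), Asz1, Tdrd1, Tdrkh, Tdrd9, Ddx4 and Mov10l1, and 1 lower, Fkbp6 (background 20.9%). In WT 1 was called higher, Tdrkh (background 26.2%), and 7 lower (background 28.2%), among them Gtsf1 (-5.07 ± 0.38), Asz1 (-4.80 ± 0.32), Fkbp6 (-3.70 ± 0.16) and Piwil2 (-2.24 ± 0.18). Tdrd1 and Ddx4 gave no call in WT at this step (0.30 ± 0.27 and -0.15 ± 0.17). The call of Tdrd1 in TKO (1.26 ± 0.31) was lost without TKO day 4 replicate 1 (0.62), that of Tdrd9 (1.01 ± 0.27) without TKO day 2 replicate 2 (0.96) or with the length offset (0.65, adjusted p = 0.213), and that of Fkbp6 (-0.41 ± 0.13) without TKO day 4 replicate 1 (-0.29) or either TKO day 2 replicate (-0.40 each). In WT the call of Mael (-1.03 ± 0.26) was lost without day 4 replicate 1 (-0.69), and that of Tdrd9 (-1.80 ± 0.32) with the length offset (-0.67, 0.25).

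Between day 4 and day 7 TKO gave 5 members higher (background 21.9%), Tdrd9, Tdrkh, Asz1, Gtsf1 and Mov10l1, and 4 lower (background 23.5%), Mael (-1.73 ± 0.29), Tdrd1 (-1.22 ± 0.31), Ddx4 (-0.68 ± 0.17) and Piwil2 (-0.57 ± 0.16). Without TKO day 4 replicate 1 the members called in this step numbered 4, and the calls of Tdrd1 (-0.57), Ddx4 (-0.47), Piwil2 (-0.43), Gtsf1 (0.69) and Mov10l1 (0.35) were lost. Those of Gtsf1 and Mov10l1 were also lost without either TKO day 7 replicate, and that of Piwil2 without day 7 replicate 1. The length offset also ended those of Piwil2 (-0.44) and Mov10l1 (0.45), and a fit with only the libraries compared that of Tdrd1 (-1.21, edgeR adjusted p = 0.0545). WT gave 1 higher, Tdrkh (1.15 ± 0.14; background 17.7%), and 8 lower (background 19.1%). The largest fitted falls outside the genes at 3 counts or fewer were those of Ddx4 (-6.93 ± 0.29) and Mov10l1 (-6.34 ± 0.35). Mael held 1 count in WT at day 7 and 586 at day 4, a scaled ratio of 0.00218 (95% exact interval 5.51e-05 to 0.0122), and Gtsf1, with 3 counts at day 7 and 15 at day 4, gave no call. Asz1 and Tdrd9, with 0 and 3 counts at day 7, lost their calls without day 7 replicate 2 or day 4 replicate 1, and Asz1 also without day 7 replicate 1.

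Levels of different genes were compared as TPM, which is scaled for depth and transcript length. At day 0 Fkbp6 led in both genotypes, with 98.8 ± 1.94 TPM in TKO and 85.0 ± 0.369 TPM in WT (SD, n = 2 each), followed by Gtsf1 with 10.8 ± 1.17 TPM in TKO and 20.7 ± 2.96 TPM in WT. Tdrd1 came last in both at day 0, with 0.0782 ± 0.0476 TPM in TKO and 0.0914 ± 0.0155 TPM in WT. By day 7 the order in TKO was Asz1 (73.3 ± 1.10 TPM), Tdrkh (47.2 ± 2.11), Mov10l1 (27.0 ± 3.00), Gtsf1 (22.7 ± 1.80), Fkbp6 (22.4 ± 1.5), Ddx4 (14.2 ± 0.166), Piwil2 (10.2 ± 1.23), Mael (2.40 ± 0.112), Tdrd9 (1.06 ± 0.0482) and Tdrd1 (0.487 ± 0.0195). Gtsf1 and Fkbp6 overlapped in that order, and the other neighbours did not. In WT at day 7 Tdrkh stood at 39.9 ± 3.29 TPM, and the next gene, Piwil2, at 0.368 ± 0.0729 TPM.

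The members fell into unlike time courses. Over the 16 libraries, which share genotype and day within groups, the log2 level of Mov10l1 had a Pearson r of 0.97 with the mean standardised profile of the 10, Piwil2 0.95 and Ddx4 0.93, whereas Fkbp6 had 0.68, Tdrd1 0.31 and Tdrkh 0.01. Each gene is part of that mean. Among pairs, Asz1 and Tdrd9 were most alike (r = 0.95), then Mael and Ddx4 and Ddx4 and Mov10l1 (0.94 each), and Tdrkh and Fkbp6 were least alike (r = -0.67).

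Transcript estimates were examined because a gene's level can come from different starts. Tdrd1 was assigned to a single transcript in each group: Tdrd1-203 took 100% of its estimated counts at days 2 and 4 in every TKO and WT library, and at day 7 Tdrd1-201 took 100% in both TKO libraries and 100% and 99.7% in those of WT. On day 0 each library had fewer than 20 counts and gave no share. Both transcripts have 26 exons, share 25 of them and have the same 24 coding exons. They differ in the first, non-coding exon, which spans 56826209 to 56826264 of chromosome 19 (56 bases) in Tdrd1-203 and 56826275 to 56826303 (29 bases) in Tdrd1-201, on GRCm38. The Tdrd1 promoter printed above ends just before the first exon of Tdrd1-203. So few distinguishing bases mean that few reads decide the assignment. At day 7 the gene held 96.9 estimated counts over both TKO libraries and 78.1 over both WT libraries.

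Fkbp6 was split between Fkbp6-201 and Fkbp6-202, which have the same coding exons and different 3′ ends. Fkbp6-202 ends in an exon of 342 bases, and Fkbp6-201 goes on to a last exon of 408 bases (135291704 to 135292111 of chromosome 5). In TKO the share of Fkbp6-202 was 25.3% and 23.7% at day 0, 54.8% and 52.2% at day 2, 31.8% and 25.9% at day 4 and 48.5% and 46.1% at day 7. In WT it was 17.2% and 23.0% at day 0, 60.9% and 61.6% at day 2 and 26.3% and 21.2% at day 4, with too few counts at day 7. The share thus was highest at day 2 in both genotypes. No error per transcript was used here, so these shares carry the spread between libraries alone.

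**Figure D4:**
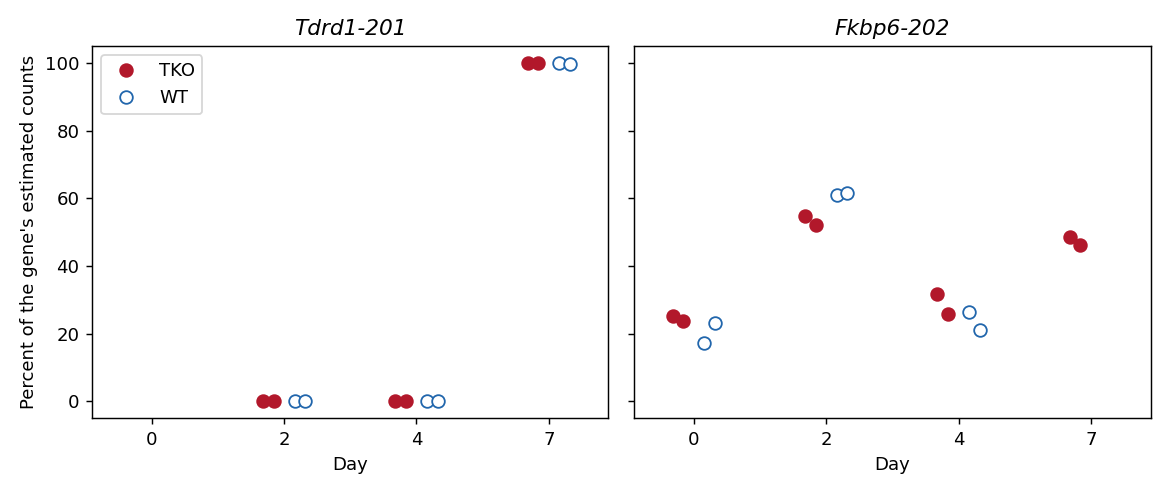
Percent of a gene's estimated counts assigned to Tdrd1-201 (left) and Fkbp6-202 (right) in each library with at least 20 counts of the gene, by day (TKO filled red, WT open blue, TKO on the left of each day). Tdrd1-201 is at 0 on days 2 and 4 and near 100 at day 7 in both genotypes.

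The rest of the pathway was followed through 18 further genes, of which 17 passed the filter and Spocd1 did not. At day 0, 15 were not called and 2 were called lower in TKO (background 8.16%), Rnf17, a Tudor-domain protein of male germ cells (-1.09 ± 0.17, edgeR adjusted p = 0.00146), and Piwil4, which encodes MIWI2 (-1.01 ± 0.28, 0.0322). At day 2, 1 was higher (background 7.91%), Tdrd7, a Tudor protein of germ granules (1.29 ± 0.25, 0.0059), and 1 lower (background 5.52%), Rnf17 (-0.81 ± 0.17, 0.00911).

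At day 4, 8 of the 17 were called higher in TKO (background 17.8%) and 1 lower (background 11.1%), with a median fold change of 0.78 against 0.01 over all genes. Gpat2, a mitochondrial outer membrane protein of the acyltransferase family that takes part in piRNA production, had 75.1 and 104 CPM in TKO libraries and 28.0 and 36.1 CPM in WT libraries (1.49 ± 0.15, edgeR adjusted p = 1.05e-05). Piwil4 had 4.38 and 2.25 CPM in TKO and 0.362 and 0.627 CPM in WT (2.76 ± 0.31, 2.94e-05). Btbd18, a regulator of piRNA precursor transcription in mouse spermatocytes, had 4.96 and 3.89 CPM in TKO and 1.22 and 1.46 CPM in WT (1.72 ± 0.23, 0.000105). In each of these 3 genes the TKO range lay above the WT range, which their choice by lowest adjusted p makes likely. The share over all genes, chosen by no such rule, was 32.4%. The gene called lower was Tdrd5, a Tudor protein of germ granules, with 16.4 CPM in both TKO libraries and 28.4 and 25.0 CPM in WT libraries (-0.70 ± 0.13, 0.00104).

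At day 7, 12 of the 17 were called higher (background 23.4%) and 3 lower (background 21.1%), with a median fold change of 1.79 against 0.00 over all genes. Gpat2 stood at 87.4 and 88.2 CPM in TKO and 6.54 and 7.89 CPM in WT (3.60 ± 0.17, edgeR adjusted p = 4.12e-09). Tdrd5 turned round from day 4, with 31.8 and 29.2 CPM in TKO and 9.63 and 9.96 CPM in WT (1.64 ± 0.13, 4.32e-07). Pnldc1, the exonuclease that trims piRNA 3′ ends, had 5.15 and 6.06 CPM in TKO and 1.52 and 1.28 CPM in WT (2.00 ± 0.16, 4.63e-07). Those called lower were Exd1 (-0.85 ± 0.14, 0.000222), Tdrd7 (-0.94 ± 0.21, 0.00284) and Gtsf1l, a paralogue of Gtsf1 (-1.32 ± 0.36, 0.0093). Among the members none was called lower on that day.

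**Figure D5:**
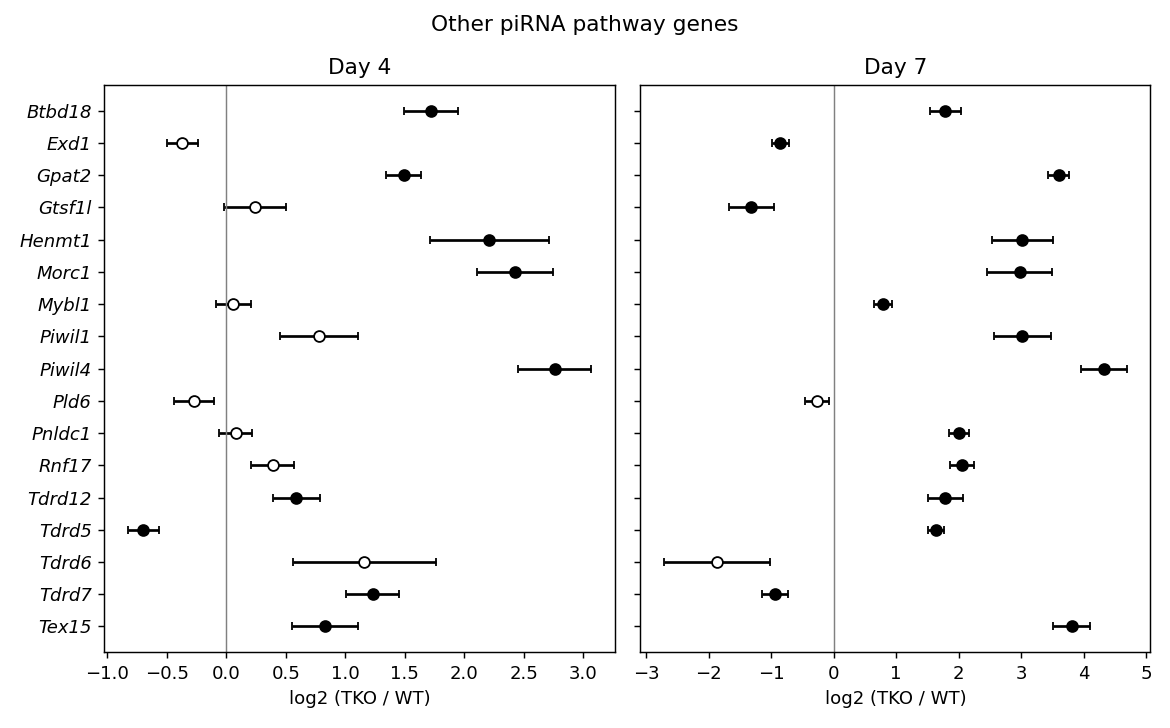
Log2 fold change of TKO over WT for 17 other piRNA pathway genes at day 4 (left) and day 7 (right), with bars of 1 standard error and filled circles for genes called at an adjusted p under 0.05. At day 7 the 3 genes called left of 0 are Exd1, Gtsf1l and Tdrd7.

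Markers of cells that could hold these transcripts were read beside the members. The spermatid genes Prm1, Prm2, Tnp1 and Acrv1 summed to at most 0.462 CPM in any TKO library and 0.477 CPM in any WT library, and 0 of the 4 reached 1 CPM in any group. The 5 primordial germ cell genes Prdm1, Nanos3, Tfap2c, Dnd1 and Dppa3 summed to 23.6 to 24.2 CPM in TKO and 11.5 to 16.8 CPM in WT at day 4, and to 27.5 to 31.2 CPM in TKO and 24.9 to 32.8 CPM in WT at day 7. At day 7, 3 of the 5 reached 1 CPM in TKO and 2 in WT, and none was at 0 counts. The 5 did not go one way at day 7. Dnd1 had 12.4 and 11 CPM in TKO and 0.966 and 0.699 CPM in WT, whereas Prdm1 had 14.9 and 12.8 CPM in TKO and 29.3 and 21.7 CPM in WT. Means at day 7 were 2.69 CPM in TKO and 1.92 CPM in WT for Tfap2c, 0.747 CPM in TKO and 0.483 CPM in WT for Nanos3, and 0.350 CPM in TKO and 0.133 CPM in WT for Dppa3. The 5 naive pluripotency genes Esrrb, Klf4, Tfcp2l1, Zfp42 and Nr0b1 summed to 51.5 to 81.8 CPM in TKO and 23.4 to 25.6 CPM in WT at day 4, and to 27.0 to 30.5 CPM in TKO and 12.3 to 14.3 CPM in WT at day 7. The 4 neural genes Sox1, Pax6, Neurod1 and Tubb3 summed to 109 to 132 CPM in TKO and 38.8 to 56.4 CPM in WT at day 4, and to 39.3 to 39.7 CPM in TKO and 64.3 to 67.6 CPM in WT at day 7. At day 7 the 4 endoderm genes Sox17, Gata4, Gata6 and Sox7 summed to 22.1 to 23.2 CPM in TKO and 61.3 to 88.0 CPM in WT. The 4 trophoblast genes Cdx2, Elf5, Krt8 and Gata3 summed to 149 to 197 CPM in TKO and 463 to 468 CPM in WT. Most of that sum was Krt8, with day 7 means of 164 CPM in TKO and 456 CPM in WT. Gata3 (1.26 in TKO, 9.01 in WT) and Elf5 (0.0838, 0.253) were also lower in TKO, whereas Cdx2 was higher (7.33, 0.253). Of the neural genes at day 7, Tubb3 (19.7 in TKO, 51.5 in WT) and Pax6 (1.45, 2.63) were lower in TKO. Neurod1 was higher (7.57, 1.69), and Sox1 overlapped (10.7, 10.1). The part of these cell types in the results was not tested.

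The 5 genes Zscan4c, Zscan4d, Zscan4f, Tcstv1 and Tcstv3 mark the rare state of stem cell cultures that resembles the 2-cell embryo. These genes too were higher in TKO than in WT at day 7. They summed to 186 to 350 CPM in TKO and 0 to 0.0241 CPM in WT, with all 5 at 1 CPM or more in TKO, and Zscan4c, Zscan4d, Zscan4f and Tcstv3 at 0 counts in WT. At day 4 the sums were 11.8 to 34.3 CPM in TKO and 9.21 to 18.7 CPM in WT. At day 2 they were 1.04 to 1.55 CPM in TKO and 17.3 to 20.5 CPM in WT. Of the members, Tdrd1, Mael, Ddx4 and Tdrkh were also called lower in TKO at day 2. Asz1 was called higher on that day, and the other 5 were not called. In TKO the sums rose from day 4 to day 7, whereas 5 members were called higher at that step and 4 lower. Reads shared among the near-identical copies of these families make the level of a single copy uncertain. The part of these cells in the members' results was not tested.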

How the data were processed

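Bulk messenger RNA of 8 groups (TKO or WT, days 0, 2, 4 and 7, 2 libraries each) was measured with a stranded TruSeq protocol, per the labels' protocols. The deposited tables hold estimated counts per transcript (expected counts) and TPM, which the authors made with kallisto, per the file headers and the submitters' processing notes, which name GRCm38 and mm10 and no kallisto version. The deposited effective length, in bases, is neither a count nor a level and served in 1 alternative. The transcript annotation is not given in the sources used here.

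Of 119414 transcripts, 116728 (97.8%) matched GENCODE vM21. Gene totals of their estimated counts were rounded to whole numbers, and unmatched transcripts held 0.946% to 1.051% of a library. Differences were tested by edgeR 4.0.16 under R 4.3.3 (TMM, filterByExpr by group, robust quasi-likelihood fit, 1 mean per group, 8 residual degrees of freedom, common biological coefficient of variation 0.111). The Benjamini-Hochberg adjustment ran over all 18489 genes tested, and standard errors are the log2 fold change divided by the root of F. A group at 0 counts gives a bound, with 3 counts over its libraries in place of 0, and groups with 1 to 3 counts give ratios with 95% exact intervals, which cover counting error only. The fit was tested on simulated data. Precision is limited by 2 libraries a group, and no libraries were identical. The spread between the libraries of a group was unequal. Its chi-square per degree of freedom was 1.66 in TKO at day 0, the value nearest to counting error, and 44.8 in WT at day 0, the highest. The 8 groups share 1 estimate of the spread per gene, so p-values do not follow these differences. Alternatives were RLE size factors, DESeq2 1.42.0, other filters, an effective-length offset, the compared libraries alone, the replicate number as a block, and each library left out in turn. The labels do not say that replicate numbers mark a shared day, so the block was not used.

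Named are all 10 members, up to 3 other called pathway genes per direction with the lowest adjusted p in each genotype comparison, and the 5 genes with the most similar profile. Members, lists and rules were chosen with earlier results of these data known. Promoters came from RefSeq GRCm38.p6, and Piwil2 is named only.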

Additional observations from a re-analysis of the deposited data

Results flagged for a closer look

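A test of the interaction singled out members whose difference between TKO and WT was not the same on a later day as at day 0. All p-values here are edgeR adjusted p-values of that test. At day 2 they were 0.000546 for Asz1, 0.0165 for Gtsf1 and 0.0238 for Piwil2, whose TKO over WT fold changes were higher than at day 0, and 0.0441 for Tdrd1 and 0.0474 for Ddx4, whose fold changes were lower. At day 4 they were 3.58e-08 for Asz1, 2.07e-07 for Fkbp6, 2.19e-06 for Gtsf1, 2.55e-06 for Piwil2, 4.82e-05 for Tdrd9, 6.99e-05 for Mov10l1 and 0.0132 for Tdrkh, all higher. At day 7 they were 1.66e-09 for Asz1, 2.47e-09 for Fkbp6, 3.37e-09 for Mov10l1, 1.93e-08 for Ddx4, 6.72e-08 for Piwil2, 1.21e-07 for Gtsf1, 2.74e-07 for Tdrd9, 7.65e-06 for Mael and 0.02 for Tdrkh, all higher.

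The 3 tests share the day 0 libraries of both genotypes. The calls at day 2, and those of Tdrkh on days 4 and 7, were lost in part when 1 library was left out, as given with their values.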

How the results depend on the processing

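Of the members' fold changes under settings other than leaving out a library, 904 kept their direction and their side of the threshold, 23 lost a call, 16 gained one and 4 reversed, and when 1 library was left out the numbers were 533, 78, 11 and 18. Members called with 1 library left out ranged from 0 to 3 at day 0, 3 to 5 at day 2, 7 to 9 at day 4 and were 8 at day 7. The interactions gave 1 to 3 at day 2, 6 to 9 at day 4 and 8 to 9 at day 7. The steps gave 8 (day 2), 5 to 8 (day 4) and 4 to 9 (day 7) in TKO and 8 to 9, 7 to 9 and 7 to 9 in WT. All genes called ranged from 687 to 4294 at day 0, 579 to 2008 at day 2, 3837 to 4346 at day 4 and 6212 to 6744 at day 7, against 2343, 2482, 5342 and 8228 with all libraries.

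With only the compared libraries, day 0 gave 0 members and 359 genes, and day 4 gave 2821 genes. The length offset gave 1602 genes at day 2 and 2 members in its interaction. With the replicate number as a block, members called were 2, 5, 9 and 8 on days 0, 2, 4 and 7, where Tdrd9 at day 0 and Tdrkh at day 7 lost their calls. Deviations of same-numbered libraries correlated from -0.75 to 0.14 over 28 pairs of groups, so equal numbers do not mark paired libraries. The lowest value was that of WT day 0 and WT day 2, whose libraries deviated alike with crossed numbers. All other pairs of groups lay at -0.14 or above. A crossed pairing, added after seeing the data, was fitted with only the compared libraries, so few degrees of freedom remained. It gave 8 members and 5273 genes at day 2, and 9 members and 3017 genes at day 4. Between TKO and WT the deviations correlated at -0.13 at day 2 and -0.11 at day 4, so little shared deviation stood behind these counts. For WT day 2 against day 0 the crossed pairing called Asz1 lower (-0.51, edgeR adjusted p = 0.0386).

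Every value that reversed was uncalled in both fits, and the cause was not tested. Under the length offset these were Mov10l1 at day 0 (0.08), Tdrd9 at day 2 (0.58) and Tdrd9 at the TKO step to day 2 (0.57), and without a filter Piwil2 at the TKO step to day 4 (0.03). With 1 library left out the ranges that crossed 0 were, at day 0, Asz1 (-0.21 to 0.01), Fkbp6 (-0.07 to 0.18) and Tdrd1 (-1.20 to 0.14), at day 2 Tdrd9 (-0.23 to 0.15), and at day 4 Mael (-0.19 to 0.56). In the day 2 interaction they were Mael (-0.37 to 0.23), Tdrkh (-0.20 to 0.16) and Mov10l1 (-0.17 to 0.01), and in the steps Ddx4 to day 4 in WT (-0.49 to 0.16), Tdrd9 to day 2 in TKO (-0.33 to 0.22) and Piwil2 to day 4 in TKO (-0.16 to 0.12).

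Below about 3 counts a group the depth gives bounds or wide intervals, which touches the WT day 7 values of Asz1, Mael, Tdrd9 and Gtsf1.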

Other observations

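Outside the pathway lists, the genes whose levels over the 16 libraries were most like the mean profile of the members were Tktl1 (Pearson r = 0.985), Taf7l (0.982), Tex12 (0.981), CN725425 (0.973) and Slc25a31 (0.968). They were taken from 14277 genes compared, whose median r was 0.00. The libraries share genotype and day within groups, and these r are a description. Taf7l encodes a germ cell relative of a TFIID subunit, Tex12 a protein of the synaptonemal complex and Slc25a31 an ADP/ATP carrier of male germ cells. Slc25a31 averaged 0.257 CPM at day 0, 1.89 at day 2, 7.07 at day 4 and 15.4 at day 7 in TKO, against 0.393 CPM at day 0, 2.64 at day 2, 0.822 at day 4 and 0 at day 7 in WT. Tktl1, a transketolase-like gene, averaged 9.17 CPM in TKO and 0 CPM in WT at day 7, and Tex12 3.84 CPM in TKO and 0 CPM in WT. The choice of these genes by likeness to the members makes such differences likely.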
